A study of Caenorhabditis elegans with 9 samples.

Results

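The abu and pqn genes of Caenorhabditis elegans were read on whole-larva expression arrays from starved first-stage (L1) larvae of 3 strains. Genes were taken by symbol: every probe set annotated with 1 gene symbol made of abu or pqn and a number was collected, and each gene was read by the probe set with the highest mean over all arrays. This gave 58 genes, 11 abu and 47 pqn, of 17118 genes read in the same way. The rule uses the symbol alone and, for genes with several probe sets, the array values to choose among them.

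Besides wild type there were the deletion mutants ogt-1(ok430), without the transferase that attaches O-GlcNAc, a single sugar, to nuclear and cytoplasmic proteins, and oga-1(ok1207), without the O-GlcNAcase that removes it. Each strain had 3 arrays, labelled as biological replicates. Larvae of all 3 strains had hatched in sterile buffer from embryos freed by bleaching, and were collected 48 h later, so that every group, wild type included, was unfed. Whole larvae were used, so a lower array value can mean fewer cells of a type or less RNA per cell, and these cannot be told apart. Each mutant is represented by 1 deletion allele, and both mutants were compared with the same 3 wild type arrays.

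The pqn symbol (prion-like, glutamine- and asparagine-rich) was given from protein sequence alone, so pqn genes share a low-complexity stretch and otherwise act in unrelated processes, from stress granules to cell death. The abu symbol (activated in blocked unfolded protein response) was given to genes induced by stress in the endoplasmic reticulum when that response is disabled, and their expression has been tied to the engulfment receptor CED-1 and the neuronal receptor OCTR-1. Many abu genes and some pqn genes encode secreted, cysteine-rich proteins that build the cuticle lining the pharynx, the feeding organ, and their RNA rises and falls with each moult.

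Array values were log2 probe set summaries, with array means of 7.36 and medians from 6.80 to 6.87. Correlations between arrays lay between 0.9786 and 0.9966, and the values spread least on the second array of oga-1 (SD 1.91) and of wild type (SD 1.96), against up to 2.05. The number of arrays limits the precision: the median standard error (SE) of a strain difference was 0.141 over the 58 genes and 0.125 over all probe sets. Probe sets for yeast genes, which larvae lack, had strain means of 4.41 to 6.26, and 6.26 was taken as the level above which a value is shown to be above background. The probe sets of the deleted genes did not tell the strains apart: ogt-1 read 11.58 ± 0.24 in wild type and 11.36 ± 0.20 in its own mutant, and oga-1 read 9.41 ± 0.47 and 9.39 ± 0.30 (mean ± SD, n = 3), with adjusted p of 0.581 and 0.986. Whether those probes lie inside the deleted stretches was not analysed here, so the strain labels rest on the submitters' word.

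Of the 58 genes, 43 had strain means above 6.26 in all 3 strains, 7 of the abu genes and 36 of the pqn genes. Another 12 were above it in no strain, among them abu-2, abu-3, abu-13, pqn-11 and pqn-84, and 3 (abu-4, pqn-26 and pqn-73) passed it in some strains only. Wild type means ran from 4.98 to 8.03 for abu genes (median 6.63) and from 4.93 to 14 for pqn genes (median 8.07). Probe sets differ in how well they bind, so these values place a gene against background and do not rank RNA amounts between genes. In starved wild type larvae 12 genes, 20.7% of the group, had means over 10, and all of them were pqn genes. Among all genes 11.5% did.

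The 8 genes with the highest wild type array values were pqn-59, pqn-53, pqn-75, pqn-48, pqn-25, pqn-70, pqn-87 and pqn-62, and apart from pqn-75 none of them passed the test in any comparison. The array values of pqn-59, the homologue of human UBAP2L, a protein of stress granules, were 14.03, 14.06 and 13.91 in wild type, 13.88, 13.90 and 13.97 in ogt-1 and 13.97, 13.94 and 13.99 in oga-1. All 9 arrays thus lay within a narrow band and the strains overlapped. Its differences from wild type were -0.08 ± 0.09 (SE) in ogt-1 and -0.03 ± 0.09 in oga-1, with adjusted p of 0.772 and 0.944. For pqn-53 the differences were -0.13 in ogt-1 and -0.16 in oga-1, and for pqn-87 they were 0.01 and -0.05, none past the test. The values of pqn-48 were 11.73, 11.91 and 11.84 in wild type, 12.07, 12.07 and 12.16 in ogt-1 and 11.95, 11.70 and 11.99 in oga-1. The ogt-1 arrays of pqn-48 lay above all the other arrays, by 0.27 over the wild type mean, with adjusted p = 0.219. For pqn-25, pqn-62 and pqn-70 the differences from wild type ran from -0.36 to -0.11 in both mutants and none passed the test.

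At the other end, the 4 genes with the lowest wild type values, abu-2, abu-3, pqn-11 and pqn-84, had strain means from 4.88 to 5.53. Their differences between strains stayed within -0.11 to 0.10. Levels this low are inside the range of the yeast control probe sets. A difference between strains that stayed within that range would not be detectable.

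**Figure D1:**
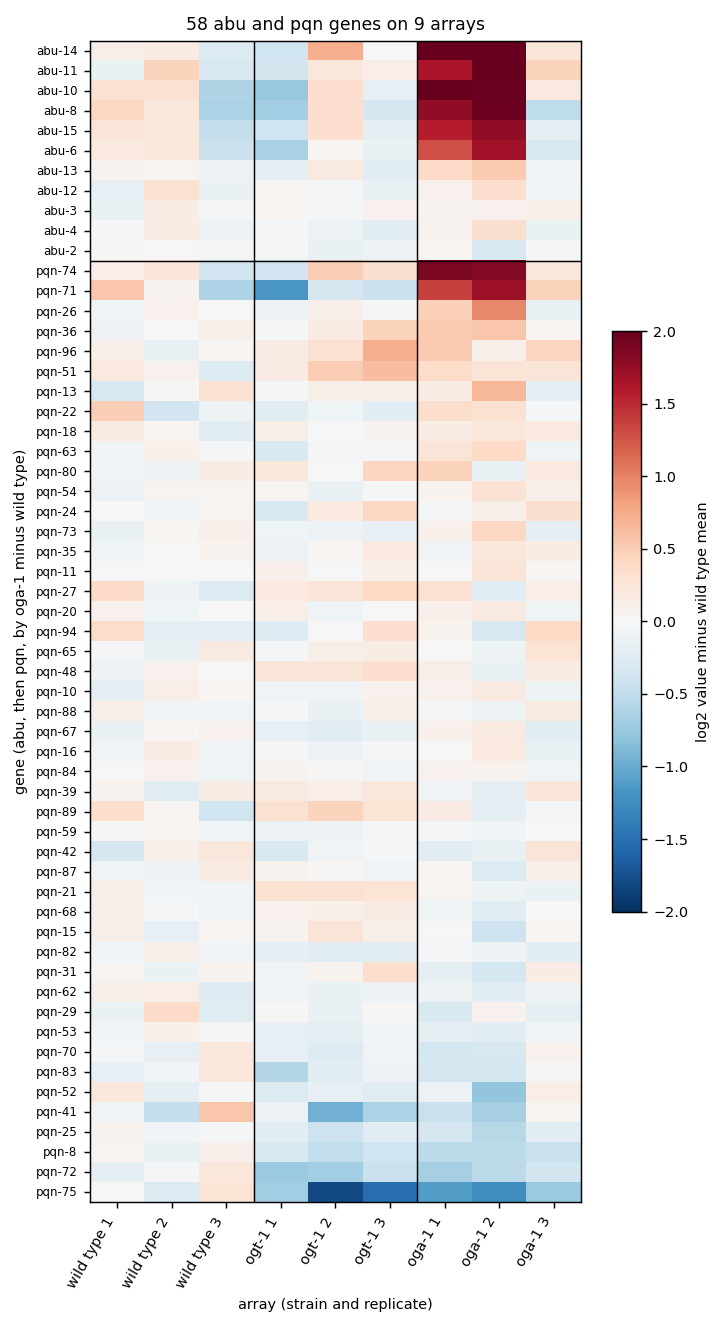
Each row is one abu or pqn gene and each column one array; colour gives the log2 array value minus that gene's wild type mean, with the colour scale ending at 2 and -2. Most pqn rows are pale on all 9 arrays, 6 abu rows with pqn-74 and pqn-71 are red on oga-1 replicates 1 and 2, and pqn-75 is blue on all mutant arrays.

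Without a block for replicate number, few of the 58 genes passed the test in any comparison, which was limma's moderated test over all 22548 probe sets with an adjusted p under 0.05. In ogt-1 against wild type, 0 were higher, where 1.94% of all genes were called higher, and 2 were lower, pqn-75 and pqn-72, where 2.38% of all genes were. In oga-1 against wild type, 0 were higher (0.8% of all genes) and 1 was lower, pqn-8 (1.31% of all genes). Between the mutants, 1 gene, pqn-71, was higher in oga-1 than in ogt-1 (0.152% of all genes) and 0 were lower (0.38% of all genes). Against wild type the called shares of the group, 3.45% in ogt-1 and 1.72% in oga-1, were near those of the background in the direction called. Between the mutants the share of 1.72% was above it and rested on 1 gene. At an unadjusted p under 0.05 there were 8, 12 and 11 genes in the same order of comparisons, beside 17.6%, 14.9% and 5.36% of all genes. The count for oga-1 against wild type depended on the fit. Same-numbered arrays of these strains deviated together, so the block is given here. With replicate number as a block, 4 genes were higher (1.5% of all genes) and 3 lower (2.13% of all genes). With the block on these strains alone, an alternative chosen after seeing the data, 8 were higher (2.71% of all genes), among them 6 abu genes, and 3 were lower (3.64% of all genes).

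The median difference over the 58 genes was -0.024 in ogt-1 against wild type, 0.057 in oga-1 against wild type and 0.058 in oga-1 against ogt-1, with medians over all genes of -0.001, 0.008 and 0.005. The abu and pqn genes parted in the comparisons with oga-1. For the 47 pqn genes the medians were -0.009, 0.019 and 0.031 in the same order. For the 11 abu genes they were -0.086, 0.887 and 1.135, which are log2 differences of array values averaged over replicates that disagreed with one another, as described next.

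Among the abu genes, a block of 6 read high on oga-1 replicates 1 and 2. On oga-1 replicate 3 they read near the wild type values. Wild type replicate 3 was itself the lowest wild type array for all 6, and oga-1 replicate 3 lay above it in each. The gene abu-14, which is required to build the pharyngeal cuticle, had array values of 8.14, 8.19 and 7.76 in wild type and 7.63, 8.75 and 8.02 in ogt-1, and of 10.28, 10.28 and 8.27 in oga-1. The third oga-1 array lay just above all wild type arrays and below the highest ogt-1 array. The other oga-1 arrays stood more than 1 log2 unit above every array of the other strains. The mean in oga-1 was higher than in wild type by 1.58 ± 0.45 (SE), or 2.99-fold, with adjusted p = 0.109. A second abu-14 probe set had 7.33, 7.56 and 6.97 in wild type, 6.71, 8.09 and 7.33 in ogt-1, and 9.80, 9.72 and 7.18 in oga-1, so the same arrays stood apart on it.

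For abu-10 the array values were 7.31, 7.31 and 6.41 in wild type, 6.26, 7.34 and 6.84 in ogt-1 and 9.0, 8.98 and 7.20 in oga-1. Its oga-1 mean was above wild type by 1.39 ± 0.44, with adjusted p = 0.153, and oga-1 replicate 3 lay inside the wild type range. A dimmer second probe set of abu-10 stayed between 4.64 and 5.08 on all arrays, inside the range of the yeast controls, and so bears no information on the gene. The values of abu-11, a gene whose overexpression lengthens the life of adult worms, were 6.5, 7.08 and 6.31 in wild type, 6.27, 6.86 and 6.76 in ogt-1 and 8.26, 8.80 and 7.07 in oga-1. The difference from wild type was 1.41 ± 0.36, with adjusted p = 0.0724. The third oga-1 array nearly equalled the second wild type array. All oga-1 arrays of abu-11 lay above all ogt-1 arrays, with adjusted p = 0.222 between the mutants.

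The other abu genes of the block lie close together in the genome. In the gene table of assembly WBcel235, abu-6 sits directly between abu-15 and abu-7 on chromosome V, and abu-8 follows with 6 other genes between it and abu-7. The array values of abu-8 were 8.19, 8.01 and 7.15 in wild type, 7.09, 8.12 and 7.45 in ogt-1 and 9.56, 9.74 and 7.28 in oga-1. Those of abu-15 were 7.30, 7.27 and 6.56 in wild type, 6.64, 7.38 and 6.86 in ogt-1 and 8.62, 8.81 and 6.86 in oga-1. The same 2 oga-1 arrays were the highest for both genes, and replicate 3 lay within the wild type values. For abu-6 the values were 7.46, 7.49 and 6.84 in wild type, 6.61, 7.32 and 7.12 in ogt-1 and 8.56, 8.94 and 6.95 in oga-1.

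The mean differences of oga-1 from wild type for these neighbours were 1.08 ± 0.54 for abu-8, 1.05 ± 0.42 for abu-15 and 0.89 ± 0.41 for abu-6, with adjusted p of 0.414, 0.272 and 0.357. A probe set annotated with both abu-7 and abu-8 gave 7.60, 7.66 and 7.03 in wild type, 6.66, 7.64 and 7.23 in ogt-1 and 9.0, 9.26 and 7.08 in oga-1, with adjusted p = 0.347. The probe sets of abu-6, abu-8 and abu-15 are of a kind that can bind related transcripts, so these neighbours may have been read in part through one another's RNA. The probe sets of abu-11, and of pqn-74 described below, can also bind related transcripts. Those of abu-10 and abu-14 are not of that kind.

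The remaining abu genes did not share the size of this pattern. The highest arrays of abu-13 were also oga-1 replicates 1 and 2, at 5.93 and 6.06, which is inside the range of the yeast controls. The values of abu-12 lay between 6.46 and 6.96 on all arrays and those of abu-4 between 6.01 and 6.56, with differences from wild type from -0.13 to 0.11 in the mutants. The group was thus split between 6 genes with wide oga-1 values and 5 with values at or near background or level across strains.

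Among the pqn genes, pqn-74 and pqn-71 shared the pattern. For both, wild type replicate 3 was the lowest wild type array, and oga-1 replicate 3 lay above it. The values of pqn-74 were 7.13, 7.24 and 6.61 in wild type, 6.61, 7.49 and 7.31 in ogt-1 and 8.88, 8.83 and 7.22 in oga-1. Its oga-1 mean exceeded wild type by 1.31 ± 0.38, with adjusted p = 0.117, and oga-1 replicate 3 lay below ogt-1 replicates 2 and 3. For pqn-71 the values were 7.84, 7.35 and 6.66 in wild type, 6.12, 6.95 and 6.85 in ogt-1 and 8.65, 9.0 and 7.74 in oga-1. Here all oga-1 arrays lay above all ogt-1 arrays, and oga-1 replicate 3 lay just below wild type replicate 1. The oga-1 mean of pqn-71 was higher than the ogt-1 mean by 1.83 ± 0.35, or 3.54-fold, with adjusted p = 0.0437. Against wild type the differences were 1.18 in oga-1 and -0.64 in ogt-1, with adjusted p of 0.118 and 0.402. The call between the mutants was lost without wild type replicate 2, oga-1 replicate 1 or 2, or any ogt-1 replicate, and over all alternatives its adjusted p ran from 0.00453 to 0.626.

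**Figure D2:**
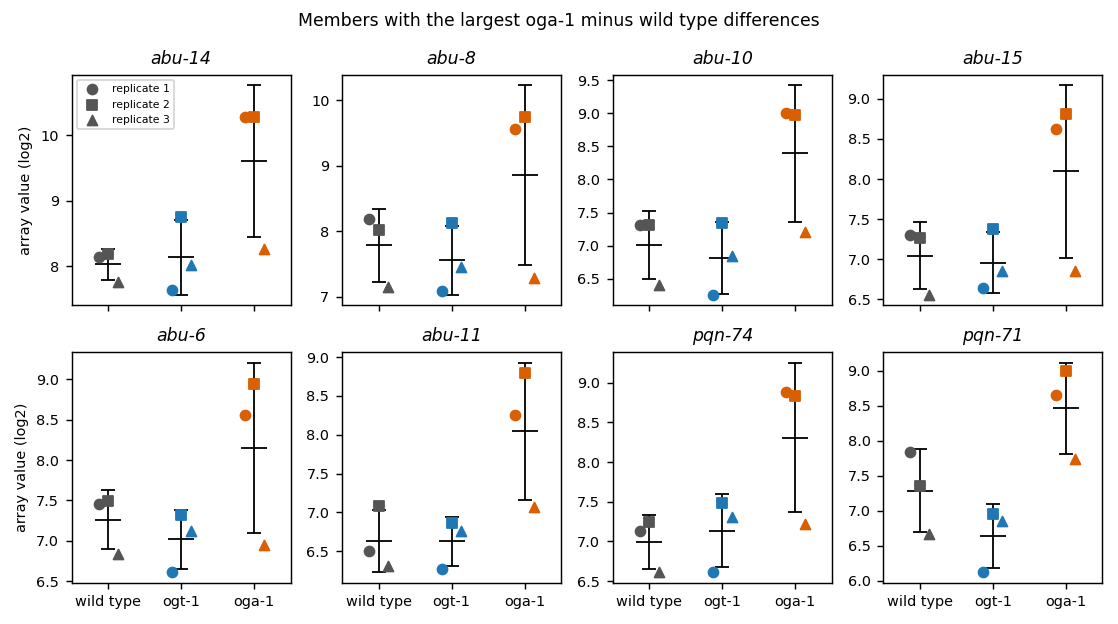
Log2 array values of 8 genes by strain, with circles, squares and triangles for replicates 1, 2 and 3 and bars for the mean ± SD (n = 3). In each panel oga-1 replicates 1 and 2 stand above all other arrays, and oga-1 replicate 3 lies within or near the values of the other strains.

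This shared pattern on 2 arrays was counted against all genes. Oga-1 replicates 1 and 2 were the 2 highest of the 9 arrays for 13 of the 58 genes (22.4%), 7 abu and 6 pqn, and for 738 of all 17118 genes (4.31%). The next pair of arrays, wild type replicate 3 and oga-1 replicate 3, was highest for 6 of the 58 (10.3%, beside 4.12% of all genes). Over all genes a commoner highest pair was wild type replicate 2 with oga-1 replicate 2, at 11.4%, which was highest for 5 of the 58 (8.62%). In 7 of them (12.1%) the lower array of that leading pair was more than 1 log2 unit above the next array, with gaps from 1.06 for abu-6 to 1.64 for abu-10, and among all genes this held for 20 (0.117%). The arrays were picked out after their values were seen, so these counts are a description and carry no test. The pair was also highest for pqn-26, pqn-36, pqn-63 and pqn-67, by smaller margins. The gaps were 0.36 for pqn-26, 0.16 for pqn-63 and 0.08 for pqn-36. For pqn-67, oga-1 replicate 1 read 6.95 and wild type replicate 3 read 6.94, so the arrays were nearly tied. Of the 13 genes, pqn-63 and abu-13 had means above the yeast control level in no strain. In pqn-26 the values of 6.54 and 7.01 stood against 5.91 on oga-1 replicate 3 and 5.94 to 6.18 in the other strains.

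The abu genes also stood out by their spread within a strain. The 3 oga-1 arrays spanned more than 1 log2 unit for 9 of the 58 genes (15.5%, beside 1.44% of all genes). The wild type arrays did so for 3 (5.17%, beside 1.53%), namely pqn-41, abu-8 and pqn-71. On the ogt-1 arrays it was 4 (6.9%, beside 0.444%), namely pqn-75, abu-14, abu-8 and abu-10. The abu genes thus also varied among ogt-1 arrays. There, replicate 2 was the highest for abu-6, abu-8, abu-10, abu-11, abu-14 and abu-15, and for pqn-74 and pqn-71 as well. Over the 11 abu genes, the median deviation from the wild type mean was 0.07, 0.22 and -0.27 on the wild type arrays, -0.36, 0.18 and -0.15 on the ogt-1 arrays and 1.29, 1.68 and -0.06 on the oga-1 arrays. The pqn genes stayed between -0.10 and 0.04 on every array.

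**Figure D3:**
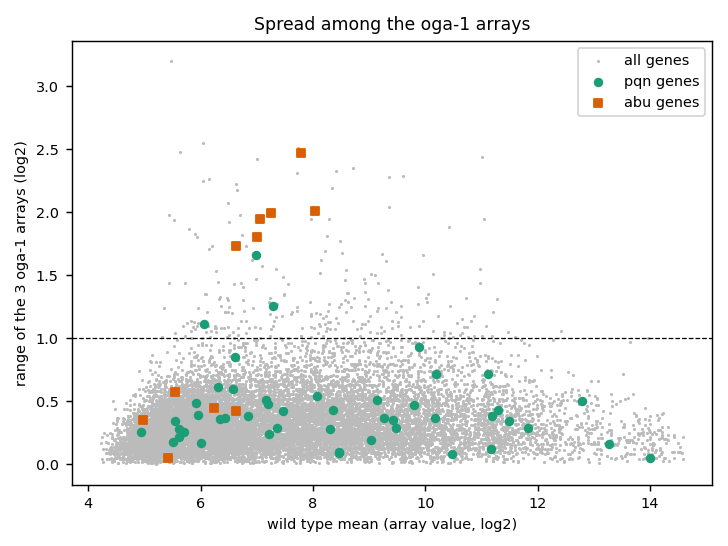
For every gene, the range of its 3 oga-1 array values (log2, y axis) against its wild type mean (log2, x axis), with all genes in grey, pqn genes as green circles and abu genes as orange squares; the dashed line marks a range of 1. The 6 abu genes and 3 pqn genes above the line are those named in the text.

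A mean over the oga-1 arrays therefore describes these genes poorly. At least 2-fold higher in oga-1 than in wild type, with no test, were 7 of the 58 genes (0.473% of all genes), and at least 2-fold higher in oga-1 than in ogt-1 were 8 (0.292% of all genes). Leaving out 1 array, oga-1 replicate 3, moved 9 genes past the test as higher in oga-1 than in wild type (1.35% of all genes were called higher in that fit) and 2 as lower, pqn-75 and pqn-8 (1.72% of all genes). Against ogt-1 the same fit called 9 higher (0.514% of all genes) and 0 lower (0.409% of all genes). The 9 were abu-6, abu-8, abu-10, abu-11, abu-14, abu-15, pqn-26, pqn-71 and pqn-74, with differences from wild type between 0.72 for pqn-26 and 2.25 ± 0.26 for abu-14 (4.76-fold, adjusted p = 0.00117). With the first or the second oga-1 array left out instead, 0 of the 58 passed against wild type.

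The 4 genes that passed as higher in oga-1 than in wild type with replicate number as a block were abu-14 (adjusted p = 0.0335), abu-10 (0.0427), abu-11 (0.016) and pqn-74 (0.049). The 3 lower genes in that fit were pqn-75 (0.0211), pqn-72 (0.0174) and pqn-8 (0.0242). On the paired strains alone abu-6 (adjusted p = 0.0321), abu-8 (0.0278), abu-15 (0.0126) and pqn-71 (0.00187) passed as higher as well. The ratio of the 3' to the 5' actin probe sets, a measure of RNA integrity in which a higher value means more loss of 5' ends, had log2 values of 0.23, 0.77 and 0.68 in wild type, 0.55, 0.48 and 0.55 in ogt-1 and 0.34, 0.60 and 0.50 in oga-1. The 2 oga-1 arrays with high abu values lay on either side of oga-1 replicate 3 in this measure. The same ratio for GAPDH was -0.04, 0.30 and -0.02 on the oga-1 arrays and -0.07 to 0.22 on the others, so that oga-1 replicate 2 was the highest of the 9. That array was also the highest for 22.7% of all genes and for 22 of the 58, and the part of RNA integrity in the abu values was not tested.

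The 3 genes that were lower in a mutant than in wild type did not show that array pattern. For pqn-75, on chromosome IV, the values were 12.78, 12.52 and 13.07 in wild type, 12.10, 10.98 and 11.28 in ogt-1 and 11.68, 11.55 and 12.05 in oga-1. Every mutant array lay below every wild type array, and ogt-1 replicate 1 was the highest of the mutant arrays. The gene fell by 1.34 ± 0.25 in ogt-1, or 2.53-fold, with adjusted p = 0.0124. The gene no longer passed without ogt-1 replicate 2 or replicate 3, and the adjusted p over all alternatives ran from 0.00143 to 0.134. In oga-1 the difference was -1.03 ± 0.25, or 2.04-fold, with adjusted p = 0.0618 in the fit without the block. The mutants differed from each other by 0.31 ± 0.25, with adjusted p = 1.0.

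For pqn-72, on chromosome I, the values were 7.17, 7.31 and 7.57 in wild type, 6.61, 6.66 and 6.91 in ogt-1 and 6.69, 6.83 and 6.98 in oga-1. All mutant arrays again lay below all wild type arrays. The gene fell by 0.62 ± 0.13 in ogt-1, or 1.54-fold, with adjusted p = 0.0253, and the difference in oga-1 was -0.52 ± 0.13, with adjusted p = 0.0798. In ogt-1 it no longer passed when wild type 2 or 3, or ogt-1 array 1 or 2, was left out, with adjusted p from 0.00463 to 0.119 over all alternatives. Both other probe sets of pqn-72 passed in ogt-1, with differences of -0.54 and -0.59 and adjusted p of 0.0114 and 0.00548. In oga-1 they gave -0.29 and -0.55, with adjusted p of 0.176 and 0.0143, so 1 of them passed there.

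For pqn-8, on chromosome III, the values were 8.52, 8.32 and 8.57 in wild type, 8.15, 7.98 and 8.07 in ogt-1 and 7.94, 7.94 and 8.03 in oga-1. Neither mutant overlapped wild type, and the oga-1 mean was the lowest, whereas for pqn-75 and pqn-72 the ogt-1 mean was. The gene fell by 0.49 ± 0.10 in oga-1, or 1.41-fold, with adjusted p = 0.0346, and the difference in ogt-1 was -0.40 ± 0.10, with adjusted p = 0.0558. The call in oga-1 was lost without any of 6 arrays (wild type 1 or 3, ogt-1 2 or 3, oga-1 1 or 2), and its adjusted p over all alternatives ran from 0.0205 to 0.137. Both mutants were compared with the same wild type arrays, so the likeness of their differences from wild type is in part shared by construction.

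**Figure D4:**
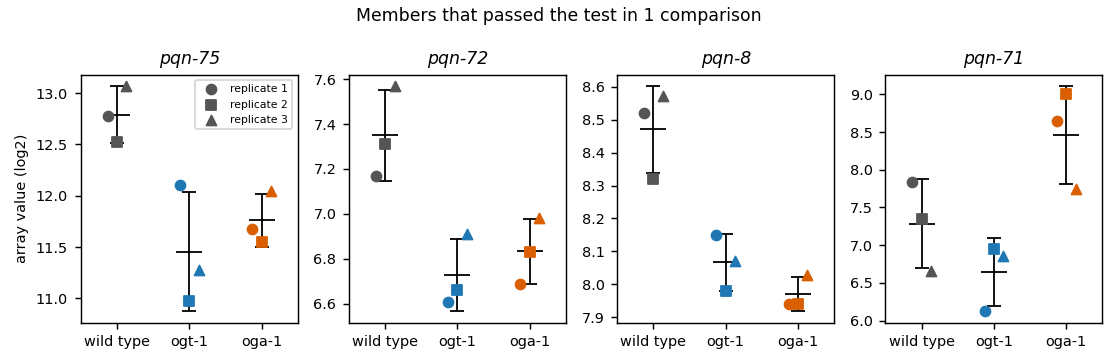
Log2 array values of the 4 genes that passed the test in a comparison, by strain, with circles, squares and triangles for replicates 1, 2 and 3 and bars for the mean ± SD (n = 3). For pqn-75, pqn-72 and pqn-8 every mutant array lies below every wild type array, and for pqn-71 every oga-1 array lies above every ogt-1 array.

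Among the pqn genes that did not pass, pqn-41, whose glutamine-rich protein acts in the death of the linker cell, had 11.05, 10.64 and 11.67 in wild type, 11, 10.16 and 10.49 in ogt-1 and 10.68, 10.45 and 11.17 in oga-1. The strains overlapped, with differences from wild type of -0.57 ± 0.27 in ogt-1 (adjusted p = 0.327) and -0.35 ± 0.27 in oga-1 (adjusted p = 0.673). On the higher side in ogt-1 were pqn-51, with 8.66, 8.56 and 8.19 in wild type and 8.63, 8.98 and 9.09 in ogt-1, and pqn-96, with 7.57, 7.32 and 7.50 in wild type and 7.62, 7.77 and 8.19 in ogt-1. Their ogt-1 differences were 0.43 ± 0.15 and 0.39 ± 0.16, with adjusted p of 0.144 and 0.226. For pqn-89 the ogt-1 difference was 0.34 ± 0.17, with adjusted p = 0.36, and the oga-1 difference was -0.02. All 3 ogt-1 arrays of pqn-96 lay above wild type, as did all 3 oga-1 arrays of pqn-51 (8.83, 8.75 and 8.72), and none of these 4 genes passed the test over all probe sets.

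The 58 genes lie on all 6 chromosomes, with 16 on V, where 25.3% of the measured genes lie, 11 on III, 11 on X, 8 on I, 8 on II and 4 on IV. The 13 genes highest on oga-1 replicates 1 and 2 were spread over all of them, with 6 on V. Outside the abu-15 to abu-8 stretch, few of the genes sit near one another: pqn-20 and pqn-21 have 4 genes between them, pqn-41 and pqn-82 have 8, and pqn-67 and pqn-68 have 10. The values of pqn-20 lay between 5.62 and 5.88 on all arrays, while pqn-21 read 9.14, 8.97 and 8.98 in wild type, 9.34, 9.34 and 9.31 in ogt-1 and 9.08, 8.93 and 8.89 in oga-1. The ogt-1 arrays of pqn-21 were the highest 3 of the 9, with a difference from wild type of 0.30 ± 0.10 and adjusted p = 0.129.

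Probe design limits several of these readings. Of the 58 probe sets, 26 are of kinds that can bind related transcripts, and 23 of the 58 genes have further probe sets. Another 11 abu and pqn symbols occur only on probe sets shared by several symbols, and of the 9 such probe sets none passed the test. Those shared by pqn-76, pqn-78, pqn-79, pqn-90, pqn-91 and abu-5 read between 5.43 and 6.72 on all arrays, at or near the level of the yeast controls.

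Genes of the processes named for the abu family were set beside them. Of 14 genes of pharyngeal glands, epithelium and cuticle, 0 passed in any comparison, with medians of -0.09 in ogt-1 and -0.02 in oga-1 against wild type. The smallest p values of the list were those of nas-6 in ogt-1, with a difference of -0.50 (adjusted p = 0.0528), and of phat-6 in both mutants, with a difference of -0.53 in each (adjusted p of 0.0759 in ogt-1 and 0.101 in oga-1). With the block phat-6 passed as lower in oga-1 (adjusted p = 0.0162). In that list phat-2, a gland gene, had 6.30, 6.48 and 6.31 in wild type, 6.26, 6.34 and 6.33 in ogt-1 and 7.19, 7.57 and 6.31 in oga-1. The values of chs-2, the chitin synthase of the pharynx, were 5.89, 6.15 and 5.38 in oga-1. These are inside the range of the yeast controls, so chs-2 was not shown to be above background there. In 3 of the 14 the 2 highest arrays were oga-1 replicates 1 and 2, beside 4.31% of all genes and 22.4% of the 58. Of 13 genes of pharyngeal muscle and organ identity, 0 passed in any comparison and 0 had that pair highest. Their medians were -0.25 in ogt-1 and -0.26 in oga-1, and the summed linear array values ran from 44700 to 50100 in wild type, 43200 to 45200 in ogt-1 and 41300 to 46400 in oga-1.

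The abu genes are named for the unfolded protein response, and some genes of that response were higher in the mutants. Of 21 genes measured, 3 rose in ogt-1 against wild type (1.94% of all genes were called higher there) and 0 fell: sel-9, a p24 cargo protein, by 0.62 (adjusted p = 0.0068), pdi-2, a protein disulphide isomerase, by 0.62 (0.0284) and sel-11, a ubiquitin ligase of the endoplasmic reticulum, by 0.45 (0.0297). In oga-1 against wild type 2 rose (0.8% of all genes) and 0 fell, hsp-4, the stress-induced BiP chaperone, by 0.89 (0.0388) and sel-9 by 0.48 (0.0394). The values of hsp-4 were 9.48, 9.63 and 9.72 in wild type, 10.02, 10.70 and 9.99 in ogt-1 and 10.52, 10.76 and 10.21 in oga-1, so all mutant arrays lay above wild type and oga-1 replicate 3 did not part from the others as it did for abu genes. The hsp-4 call was lost when any wild type array or the first or second oga-1 array was left out. The list's medians were 0.16 and 0.17, and 1 of its genes, dnj-27, had oga-1 replicates 1 and 2 as the highest pair. Of 10 genes of the CED-1 pathway and octr-1, 0 passed in any comparison.

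Genes of moulting and the apical matrix, the process with which pharyngeal cuticle genes cycle, were at low values in these larvae. Of 25 genes, 12 had means above the yeast control level in all strains. In ogt-1 1 of the 25, the kinase nekl-2, fell by 0.48 (adjusted p = 0.0281), where 2.38% of all genes were called lower. In oga-1 against wild type 0 passed. Beside 4.31% of all genes and 22.4% of the 58, the 2 highest arrays were oga-1 replicates 1 and 2 in 6 of the 25. Of these mlt-8 read 6.04, 6.29 and 6.22 in wild type, 6.26, 6.33 and 6.19 in ogt-1 and 7.04, 7.36 and 6.30 in oga-1, and mlt-9 read 6.58, 6.73 and 5.84 in oga-1. The oga-1 differences from wild type were 0.72 and 0.50, with adjusted p of 0.115 and 0.274.

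Markers of other tissues were read on the same arrays. Of 9 hypodermis markers 0 passed, and the collagen gene sqt-3 read 11.20, 10.98 and 10.74 in wild type, 10.65, 11.44 and 11.01 in ogt-1 and 11.88, 12.23 and 10.67 in oga-1. Their summed linear values were 8080 and 8660 on oga-1 replicates 1 and 2, 5450 on oga-1 replicate 3 and 5630 to 7280 on the other arrays. Without sqt-3 the sums were 4320, 3880 and 3820 on the oga-1 arrays and 4020 to 4790 on the others, so the higher sums rested on sqt-3. The median deviations of the list on the oga-1 arrays were 0.01, -0.10 and -0.15. In 2 of the 9 markers, sqt-3 among them, the 2 highest arrays were oga-1 replicates 1 and 2, beside 4.31% of all genes. Of 11 body wall muscle markers, unc-54 rose by 0.76 in ogt-1 (adjusted p = 0.00939), where 1.94% of all genes were called higher. In oga-1 unc-54 and myo-3 rose by 0.81 and 0.90 (adjusted p of 0.0139 and 0.049), where 0.8% of all genes were. The medians of this list against wild type were 0.21 in ogt-1 and 0.25 in oga-1, with 8 and 9 of the 11 above 0. Of 9 intestine markers and 11 neuron markers 0 passed. Of 10 germline markers glh-1 fell by 0.48 in ogt-1 (adjusted p = 0.0434), where 2.38% of all genes were called lower. Summed values of the intestine list ran from 39700 to 42800 and those of the neuron list from 55300 to 59800 over all arrays. The sums of the body wall muscle list ran from 39100 to 48900 in wild type, 51100 to 53300 in ogt-1 and 50700 to 56900 in oga-1. In that list every mutant array thus had a higher sum than every wild type array. The part of tissue makeup, of developmental stage and of differences between cultures in the abu values was not tested.

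**Figure D5:**
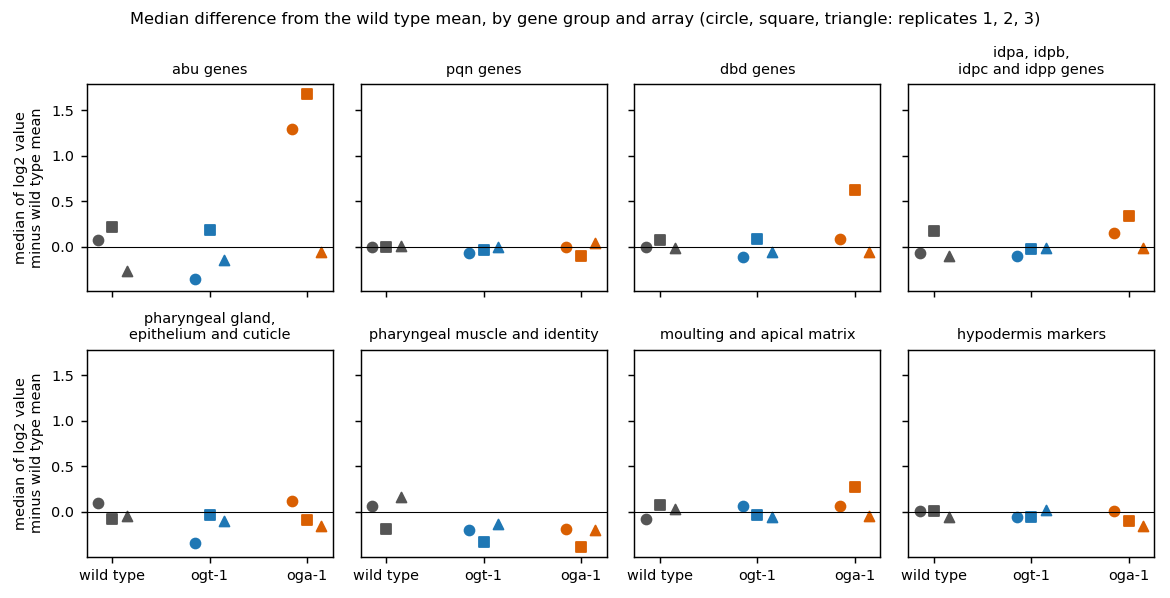
For 8 groups of genes, the median over genes of the log2 array value minus the gene's wild type mean, per array, with circles, squares and triangles for replicates 1, 2 and 3. The abu genes stand at 1.29 and 1.68 on oga-1 replicates 1 and 2 and at -0.06 on replicate 3. On oga-1 replicates 1 and 2 the pqn genes and the pharyngeal and hypodermis lists stay nearer 0. The other 3 groups are also higher on oga-1 replicates 1 and 2 than on replicate 3, by less than the abu genes. On oga-1 replicates 1, 2 and 3 the dbd genes stand at 0.08, 0.62 and -0.06. The idpa, idpb, idpc and idpp genes stand at 0.15, 0.34 and -0.02, and the moulting list at 0.07, 0.27 and -0.04. On oga-1 replicate 3 the pharyngeal and hypodermis lists stand from -0.20 to -0.15.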

How the data were processed

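RNA of 9 arrays was used, 3 for each of the strains. Per the labels' protocols, cRNA labelled with biotin was made from 4 ug of total RNA. The deposited log2 values, 1 per probe set (4.16 to 14.68), had already been normalised by the authors, as equal array means show. MAS5, RMA and Partek appear in the submitters' processing notes with no role given.

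Of 22625 probe sets, 77 controls were left out and 22548 tested. The platform annotation gives 1 symbol for 20766 of them, several for 887 and none for 895, and the brightest 1-symbol probe set per gene gave 17118 genes. All 58 abu and pqn symbols were found unaltered in the gene table of assembly WBcel235. The members and lists were chosen with earlier results of these data known. Named genes are those that passed a test, the 8 largest differences per comparison, the 8 highest and 4 lowest wild type values, and up to 4 genes per comparison of each of 10 companion lists, by smallest p. Other genes given with values (chs-2, dnj-27, pqn-20, pqn-21 and the genes of the array pattern) were chosen after their values were seen.

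Strains were compared with limma 3.58.1 in R 4.3.3 (lmFit and eBayes, 9 arrays, 1 mean for each strain, 5.65 prior and 6 residual degrees of freedom), with Benjamini-Hochberg adjustment over all 22548 probe sets. The fit was tested on simulated data. The labels call the arrays of a strain biological replicates and do not say how cultures were separated. Replicate numbers were checked by correlating, over all probe sets, each array's deviations from its strain mean: same-numbered wild type and oga-1 arrays had r of 0.48, 0.43 and 0.36, so the block is given beside that comparison. No protein or promoter sequence was analysed here, and the planned split of members by cysteine content was not made. Alternatives tried were quantile normalisation, leaving out dim probe sets, averaging the probe sets of a gene, no variance moderation, a variance trend with robust fitting, the replicate block, fits on the compared strains alone, stricter thresholds, leaving out the less specific probe sets, and each array left out in turn.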

Additional observations from a re-analysis of the deposited data

Results flagged for a closer look

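One result stood out because the effects of the mutants differed by a test of the difference itself. The difference of oga-1 from wild type for pqn-71 exceeded that of ogt-1 by 1.83 ± 0.35 on the log2 scale, with adjusted p = 0.0437 by limma over all probe sets. The wild type mean cancels in it, so this is the comparison of oga-1 with ogt-1 already given above and no further test. The oga-1 arrays read 8.65, 9.0 and 7.74 and the ogt-1 arrays 6.12, 6.95 and 6.85, so all 3 oga-1 arrays were above all 3 ogt-1 arrays. The call was lost in 11 of the 22 alternatives, and its cause was not tested.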

How the results depend on the processing

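Counts of called abu and pqn genes were small and moved with single arrays. With each array left out in turn, the counts ran from 0 to 3 for ogt-1 against wild type, 0 to 11 for oga-1 against wild type and 0 to 9 for oga-1 against ogt-1, and the median differences from -0.055 to -0.007, 0.031 to 0.076 and 0.035 to 0.111. With no variance moderation, and at an adjusted p under 0.01, the counts were 0, 0 and 0. The variance trend with robust fitting gave 0 for both comparisons of oga-1, as did leaving out wild type replicate 2 and oga-1 replicate 2 together, an alternative chosen after seeing the data. Quantile normalisation gave 0 between the mutants, and averaging the probe sets of a gene gave 2 for oga-1 against wild type. With at least 2-fold required as well, or with only the 32 genes read by specific probe sets, the counts were 1 for ogt-1 and 0 for oga-1 against wild type. Without the dimmest 50% of probe sets 37 of the genes were left, and the median for oga-1 against wild type was 0.007. Replicate number as a block gave 7 for oga-1 against wild type and 2 between the mutants; on the compared strains alone, an alternative chosen after seeing the data, it gave 11 and 2. Pairing for the other comparisons was not borne out, with same-number r from -0.10 to 0.00 for wild type with ogt-1 and 0.07 to 0.11 between the mutants, and 7 of the 9 arrays correlated best with an array of their own number. Of the calls in the companion lists, sel-9 and unc-54 in ogt-1 kept theirs without each array in turn. The others lost theirs without 1 array: unc-54 in oga-1 without oga-1 replicate 1, and pdi-2, sel-11, nekl-2, glh-1, hsp-4, myo-3 and sel-9 in oga-1 without any of several. Among the differences of single named genes, 6247 values over the alternatives stayed on their side of the threshold, 88 gained and 123 lost a call, 13 moved by more than the spread between replicates, and no called difference changed its direction. The cause of these shifts was not tested. The design had 3 arrays a strain, and 12 of the 58 genes were not above the yeast control level in any strain. Differences in these genes that stayed below that level would not be detectable.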

Other observations

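The genes that shared the array pattern of the abu block were looked up among all genes, after the values were seen and with no test. Besides the 7 abu and pqn genes, 13 others had oga-1 replicates 1 and 2 more than 1 log2 unit above the next array, among them the cuticle collagen genes col-48, col-74 and dpy-14, the gene dbd-13 and idpc-1, a gene of a family named for intrinsically disordered proteins of the pharynx and cuticle. The array values of dbd-13 were 9.20, 8.32 and 7.35 in wild type, 7.81, 9.11 and 8.02 in ogt-1 and 10.92, 11.15 and 9.20 in oga-1, with a difference of oga-1 from wild type of 2.13 ± 0.54 and adjusted p = 0.0731. For idpc-1 they were 7.38, 7.58 and 7.08 in wild type, 7.05, 7.50 and 7.15 in ogt-1 and 8.68, 8.64 and 7.13 in oga-1, with adjusted p = 0.294. Of 13 dbd genes 6, and of 26 idpa, idpb, idpc and idpp genes 8, had these arrays as their highest pair, beside 4.31% of all genes. The values of col-74 were 5.69, 5.51 and 5.23 in wild type and 7.59, 9.06 and 5.86 in oga-1, and those of dpy-14 were 5.87, 5.58 and 5.48 in wild type and 7.40, 8.11 and 5.63 in oga-1, both with wild type values inside the range of the yeast controls.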
